A study of Mus musculus with 8 samples.

Results

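Fibrillar collagens are the chains that assemble into the banded fibrils of bone, cartilage and other connective tissue. The 10 genes followed here were Col1a1, Col1a2, Col3a1, Col5a1, Col5a2, Col5a3, Col11a1, Col11a2, Col24a1 and Col27a1. Col2a1, the chain of type II collagen, was not among them and is given further below. The 10 were chosen by name from the fibrillar chains, out of 18193 genes with at least 1 probe set of their own. Below, the family means these 10 genes. All probe sets annotated to exactly 1 of these symbols were taken, which gave 20 probe sets of 45037 tested, and no filter on low values was applied. Total RNA of tibia and femur from male mice, 12 days old, was put on the arrays. The 4 Hyp arrays came from mice with a 3′ deletion of Phex on the C57BL/6 background, a model of X-linked hypophosphatemia, and the strain field of their labels reads C57BL6. The 4 wild-type (WT) arrays came from mice whose strain field reads only wild type, so a shared background is not stated for them. Both groups are described under the same standard diet, with 0.6% calcium, 0.54% phosphorus and 2200 IU vitamin D, and no treatment is described. Each RNA combined 2 bone samples of 1 genotype, and how many mice that involved is not given, so p-values reflect only how far these RNA preparations spread, which may be technical. Whether marrow was removed is not given either.

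A fibrillar procollagen is a trimer of chains wound into a long triple helix. Type I collagen, made of Col1a1 and Col1a2 chains, is the main protein of bone matrix. Type III (Col3a1) accompanies it in soft and vascular tissue, and type V (Col5a1, Col5a2, Col5a3) and type XI (Col11a1, Col11a2) are minor chains that co-assemble with the major fibrils and set where a fibril starts and how thick it grows. Type XI is best known from cartilage, where its partner is type II collagen, and it also mixes with type V chains in bone. Col24a1 is a chain of forming bone, and Col27a1 is known from cartilage. Chains are hydroxylated, folded by chaperones, trimmed by propeptidases outside the cell and crosslinked before the fibril is mature.

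The values, taken as log2 intensities, had been centred on the median of the 8 arrays for each probe set. They thus carry differences between arrays and no level. One consequence is that, where the groups did not overlap, the innermost array of each group lay at the same distance from 0 on either side. Phex itself was lower in Hyp at both of its probe sets, with differences of -8.31 ± 0.21 and -5.03 ± 0.20 (SE, n = 4 per group), and Fgf23, the phosphaturic hormone of bone, was higher by 5.61 ± 0.19. The positions of these probe sets in Phex are not known here, so one outside the deleted 3′ part would check nothing by itself. One array stood apart: on the next component after the one that separated the genotypes, WT replicate 3 scored -38.4 while the rest scored from -10.3 to 17.5. The same array had the highest mean over 15 skeletal muscle markers (1.69) and Hyp replicate 2 the lowest (-1.16), with the remaining arrays between -0.56 and 0.25. In bulk bone, fewer cells of a type and less RNA per cell cannot be told apart.

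Most of the 10 fibrillar collagens were lower in Hyp bone. Of the 20 probe sets, 12 fell and 3 rose (limma, adjusted p under 0.05 over all probe sets), where 7.13% of all probe sets changed, 3.91% downward and 3.22% upward. Their median difference was -0.38 on the log2 scale, against 0.022 over all probe sets. The groups did not overlap in 18 of the 20, compared with 15.5% of all probe sets, and in 15 of them Hyp was the lower group, compared with 7.13% of all probe sets. On the mean of a gene's probe sets, 7 of the 10 genes fell and 2 rose, where 12.9% of 18193 genes changed, 6.32% downward and 6.54% upward. The remaining gene was Col5a3. The median over the 10 genes was -0.56, against 0.025 over all genes. Leaving out WT replicate 3 gave the same 12 lower and 3 higher probe sets by number, and leaving out both it and Hyp replicate 2 gave 10 lower and 3 higher. Of the 15 calls, 12 were kept whichever of the 8 arrays was left out, and the 3 that were not are named with their gene.

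**Figure D1:**
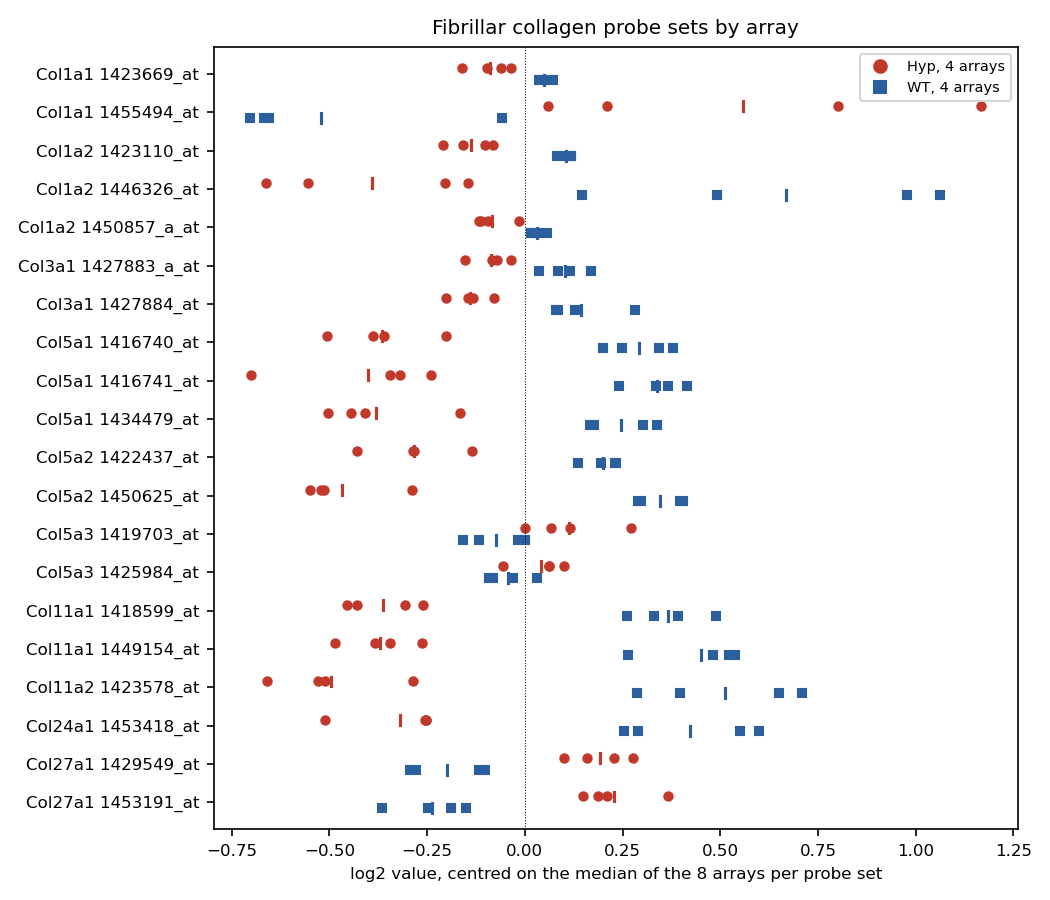
Centred log2 value (horizontal axis) of each of the 20 fibrillar collagen probe sets (rows) on the 4 Hyp arrays (circles) and 4 WT arrays (squares), with a vertical tick at each group mean. The groups are separate in 18 rows and overlap in the 2 rows of Col5a3, and the widest spread within a group is at 1455494_at and 1446326_at.

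The type V chains Col5a1 and Col5a2 fell at every one of their 5 probe sets. At 1416740_at, a Col5a1 probe set, the Hyp arrays lay at -0.36, -0.51, -0.20 and -0.39 and the WT arrays at 0.38, 0.20, 0.34 and 0.25. Hyp replicate 3 was the highest of its group and still lay below all WT arrays. The difference was -0.66 ± 0.08 (SE, n = 4 per group; limma adjusted p = 0.000681). The other Col5a1 probe sets, 1416741_at and 1434479_at, gave -0.74 ± 0.10 and -0.63 ± 0.08 (limma adjusted p = 0.00134 and 0.00142). No difference in Hyp effect was detected between any pair of the 3, though 4 arrays per group leave little power. The differences lay between -0.11 and 0.08, with exact permutation p from 0.229 to 0.343. On the gene mean Hyp bone had 0.626 of the WT signal, a fall of 0.67 (95% confidence interval from -0.84 to -0.51).

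Col5a2, the partner chain of Col5a1 in the common type V trimer, fell at both probe sets. At 1450625_at the Hyp arrays lay at -0.52, -0.55, -0.29 and -0.51 and the WT arrays at 0.40, 0.30, 0.40 and 0.29, which gave -0.82 ± 0.07 (SE; limma adjusted p = 0.000189). At 1422437_at the difference was -0.48 ± 0.07 (limma adjusted p = 0.00242). Every array lay on the side of its group at both. The probe sets differed from each other by 0.33 ± 0.03 (SE; two-sided exact permutation p = 0.0286, the smallest that 4 against 4 arrays allow, and 0.0572 after adjustment over the 12 pairs of probe sets compared). Both probe sets thus fell, and the difference in size did not pass after adjustment. The gene mean fell by 0.65, to 0.638 of WT.

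Col5a3, the remaining type V chain, did not follow them. Its 2 probe sets lay at 0.19 ± 0.07 and 0.09 ± 0.06 (SE, n = 4 per group; limma adjusted p = 0.169 and 0.455). At 1419703_at the Hyp arrays lay at -0.001, 0.27, 0.11 and 0.07 and the WT arrays at -0.12, -0.16, 0.001 and -0.02. The groups overlapped by a single Hyp array, replicate 1, that lay just below the highest WT array. The 95% confidence interval of the gene mean ran from 0.01 to 0.26, so a fall of the size seen in Col5a1 lay outside it.

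The type XI chains showed the largest falls of the family on gene means. Col11a2 has a single probe set, 1423578_at, at which the Hyp arrays lay at -0.53, -0.66, -0.29 and -0.51 and the WT arrays at 0.65, 0.40, 0.71 and 0.29. The difference was -1.01 ± 0.11 (SE; limma adjusted p = 0.000451), so Hyp bone had 0.497 of the WT signal. WT replicates 1 and 3 were the higher pair of their group. Col11a1 fell by 0.73 ± 0.07 at 1418599_at and by 0.82 ± 0.08 at 1449154_at (limma adjusted p = 0.000313 and 0.000268). At 1449154_at the Hyp arrays lay at -0.35, -0.49, -0.26 and -0.38 and the WT arrays at 0.52, 0.26, 0.54 and 0.48. Both probe sets separated all 8 arrays by genotype, and the 2 differed by 0.09 ± 0.07 (exact permutation p = 0.257).

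Col24a1, the fibrillar chain known from ossifying tissue, also fell, at its 1 probe set 1453418_at. The Hyp arrays lay at -0.26, -0.25, -0.25 and -0.51 and the WT arrays at 0.55, 0.25, 0.60 and 0.29. Hyp replicate 4 was lower than the other Hyp arrays, which lay between -0.26 and -0.25. The difference was -0.74 ± 0.10 (SE; limma adjusted p = 0.00139), and it lay between -0.80 and -0.68 whichever array was left out.

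Col3a1, the type III chain, fell by less. At 1427884_at the Hyp arrays lay at -0.08, -0.15, -0.13 and -0.20 and the WT arrays at 0.08, 0.09, 0.13 and 0.28. The groups were separate, with a difference of -0.28 ± 0.07 (SE; limma adjusted p = 0.0278). At 1427883_a_at it was -0.19 ± 0.06 and did not pass (limma adjusted p = 0.0842), although no array crossed over. The call at 1427884_at was lost without Hyp replicate 2, 3 or 4 or WT replicate 1 or 4 (limma adjusted p from 0.0351 to 0.0742 over the 8 omissions). The gene mean passed in all of them and lay at -0.24 ± 0.05 (limma adjusted p = 0.0158). Col3a1 and Col5a2 are neighbours on their chromosome, with 0 protein-coding genes between them in RefSeq, and the difference between their falls was not tested.

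Col27a1, a chain known from cartilage, was the one member that rose at every probe set. At 1453191_at the Hyp arrays lay at 0.21, 0.37, 0.15 and 0.19 and the WT arrays at -0.19, -0.37, -0.15 and -0.25. The rise was 0.47 ± 0.07 (SE; limma adjusted p = 0.00343). At 1429549_at it was 0.39 ± 0.07 (limma adjusted p = 0.00852). The probe sets differed by 0.08 ± 0.04 (exact permutation p = 0.114), and both calls were kept whichever array was left out. Hyp bone had 1.35 times the WT signal on the gene mean.

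**Figure D2:**
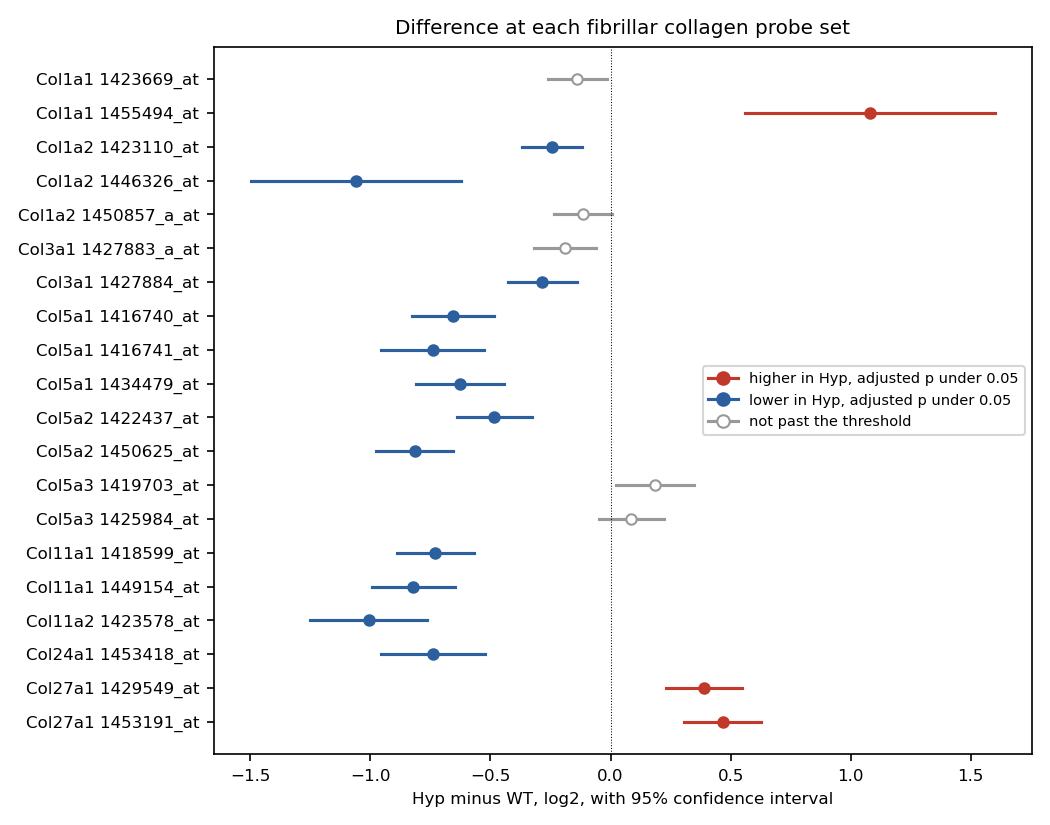
Hyp minus WT difference on the log2 scale (horizontal axis) at each fibrillar collagen probe set (rows), with its 95% confidence interval from the limma fit. Filled points passed an adjusted p of 0.05: 12 are lower in Hyp, 3 are higher, and 5 open points did not pass.

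Type I collagen held the one gene whose probe sets had opposite signs, Col1a1 with its 2 probe sets. At 1455494_at the Hyp arrays lay at 0.21, 0.80, 1.17 and 0.06 and the WT arrays at -0.70, -0.65, -0.06 and -0.67. The groups were separate, with Hyp replicate 4 and WT replicate 3 nearest to each other. The difference was 1.08 ± 0.23 (SE, n = 4 per group; limma adjusted p = 0.0214). At 1423669_at the Hyp arrays lay at -0.10, -0.16, -0.06 and -0.04 and the WT arrays at 0.07, 0.04, 0.04 and 0.05, a difference of -0.14 ± 0.06 that did not pass (limma adjusted p = 0.174). Its 95% confidence interval, from -0.26 to -0.02, did not overlap that of the other probe set, from 0.56 to 1.60.

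The rise at Col1a1 1455494_at did not survive every omission. It was lost when Hyp replicate 2 or WT replicate 1, 2 or 4 was left out (limma adjusted p = 0.0672, 0.0731, 0.0559 and 0.0617) and kept otherwise, with a difference between 0.88 and 1.25. The mean over both Col1a1 probe sets lay at 0.47 ± 0.12 (limma adjusted p = 0.026), and this call was lost without Hyp replicate 2 or 3 or WT replicate 1, 2 or 4. A rise of Col1a1 therefore rests on 1 of its 2 probe sets.

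Col1a2 fell at 2 of its 3 probe sets. At 1446326_at the Hyp arrays lay at -0.15, -0.66, -0.20 and -0.55 and the WT arrays at 0.98, 0.49, 1.06 and 0.15. WT replicate 4 was the lowest of its group, close to the highest Hyp array. The difference was -1.06 ± 0.20 (SE; limma adjusted p = 0.00952) and was kept in each of the 8 omissions. At 1423110_at the Hyp arrays lay at -0.16, -0.21, -0.08 and -0.10 and the WT arrays at 0.10, 0.08, 0.12 and 0.12. That difference was -0.24 ± 0.06 (limma adjusted p = 0.0279), and it was lost without Hyp replicate 1, 2 or 4 or WT replicate 1, 2 or 4 (limma adjusted p up to 0.0799). At 1450857_a_at it was -0.11 ± 0.05 (limma adjusted p = 0.251). All 3 Col1a2 probe sets had the Hyp arrays below the WT arrays.

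The 5 type I probe sets fell into distinct kinds by their spread. Within WT, the SD was 0.017 at 1423669_at (Col1a1), 0.017 at 1423110_at and 0.020 at 1450857_a_at (Col1a2), where the median over all probe sets was 0.114. Only 0.759%, 0.815% and 1.17% of all probe sets had a lower WT SD than these. The probe sets with the large differences had a WT SD of 0.309 (1455494_at) and 0.430 (1446326_at), above 96.7% and 99.0% of all probe sets. Within Hyp the probe sets with small differences stood less low, with 14.8%, 17.5% and 11.1% of all probe sets below them, while those with large differences stood above 99.7% and 95.9%. Signal over background cannot be read from centred values, and its part in this pattern was not tested.

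**Figure D3:**
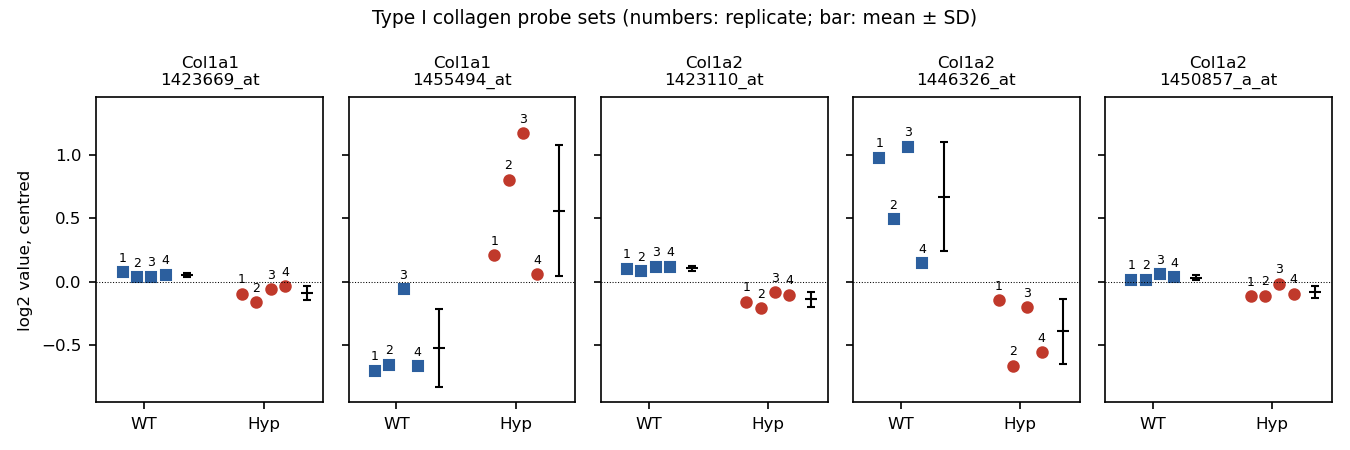
Centred log2 values (vertical axis) of the 2 Col1a1 and 3 Col1a2 probe sets on each WT and Hyp array, numbered by replicate, with the group mean ± SD beside them. The Hyp arrays lie above the WT arrays at 1455494_at and below them at the other 4 probe sets, and the spread is far wider at 1455494_at and 1446326_at.

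Over the family, 11 of the 12 pairs of probe sets of the same gene had the same sign, and the exception was Col1a1. In 6 pairs (1 of Col1a1, 3 of Col1a2, 1 of Col3a1 and 1 of Col5a2) the difference between the probe sets reached the smallest exact permutation p of 0.0286, which became 0.0572 after Benjamini-Hochberg adjustment over the 12 pairs, so none passed. With 12 tests none can pass unless at least 7 reach that smallest p, so the missed threshold is mostly set by the number of arrays. The largest was between the Col1a1 probe sets, at -1.22 ± 0.31 (SE), followed by Col1a2 1446326_at against 1450857_a_at at -0.95 ± 0.24. Probe sets of 1 gene also tended to share their deviations from the group means. The correlation of these deviations over the 8 arrays was 0.70 to 0.94 among the Col5a1 probe sets, 0.88 for Col5a2, 0.83 for Col3a1, 0.83 for Col27a1 and 0.61 for Col11a1. It was 0.74 between Col1a2 1423110_at and 1450857_a_at, and lower, at 0.45, for Col5a3. It was -0.31 between the Col1a1 probe sets, and 0.24 and 0.26 between 1446326_at and the other Col1a2 probe sets. These are descriptions over 8 arrays of the same hybridisations.

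For Col1a1 and Col1a2, the chains of a single trimer, the gap between their changes depended on the probe sets used. The per-array value of Col1a1 minus Col1a2, on gene means, lay between 0.20 and 0.65 in Hyp and between -0.68 and -0.41 in WT. The difference was 0.94 ± 0.14 (SE; two-sided exact permutation p = 0.0286, the smallest possible). With the probe set of each gene that had the lowest SD within WT, 1423669_at against 1423110_at, it was 0.10 with the same p. With the lowest SD within Hyp, 1423669_at against 1450857_a_at, the sign turned and it was -0.023 (exact permutation p = 0.543). Both choices were made after the values were seen, and neither size nor direction of the gap was shared over the probe sets.

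Ordered by the gene mean, the differences ran from Col11a2 (-1.01) through Col11a1 (-0.78), Col24a1 (-0.74), Col5a1 (-0.67), Col5a2 (-0.65), Col1a2 (-0.47), Col3a1 (-0.24), Col5a3 (0.14) and Col27a1 (0.43) to Col1a1 (0.47). Steps between the 9 neighbouring pairs were also tested, although none can pass after adjustment unless at least 6 reach the smallest p. The step from Col5a2 to Col1a2 (0.18 ± 0.06, SE), that from Col3a1 to Col5a3 (0.37 ± 0.06) and that from Col5a3 to Col27a1 (0.29 ± 0.07) reached the smallest exact permutation p of 0.0286, with an adjusted p of 0.0858. Between Col11a1 and Col5a2 the steps were 0.07 or less, with exact permutation p from 0.486 to 0.686. The order was read from the same values, so these tests describe how close neighbours lay.

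Of the 10 genes, 8 had a promoter window in the RefSeq table used here (GRCm38.p6), all but Col1a1 and Col5a2. The windows of 5 genes that fell and of Col27a1, which rose, are shown so that members that moved together can be read beside one that moved the other way. Each line gives 150 bases before the annotated start and the first 10 from it, on the strand of the gene, 5′ to 3′, and capitals mark matches on either strand to the CCAAT box (spelled CCAAT here), the GC box (spelled GGGCGG here), the TATA box (spelled TATAAA here) or the cyclic AMP response element (spelled TGACGTCA here).
Col1a2, chr6:4505468-4505627 (+): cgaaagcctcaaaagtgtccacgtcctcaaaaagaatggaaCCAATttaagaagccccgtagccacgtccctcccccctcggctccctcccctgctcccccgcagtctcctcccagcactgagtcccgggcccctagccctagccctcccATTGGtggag
Col5a1, chr2:27886275-27886434 (+): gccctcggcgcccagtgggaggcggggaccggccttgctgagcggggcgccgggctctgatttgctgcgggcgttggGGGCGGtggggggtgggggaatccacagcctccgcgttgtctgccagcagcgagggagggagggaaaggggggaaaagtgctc
Col11a1, chr3:114030390-114030549 (+): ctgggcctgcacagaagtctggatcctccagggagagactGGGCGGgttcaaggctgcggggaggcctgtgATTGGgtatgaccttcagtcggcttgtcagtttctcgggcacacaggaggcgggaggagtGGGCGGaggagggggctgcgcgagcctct
Col11a2, chr17:34038988-34039147 (+): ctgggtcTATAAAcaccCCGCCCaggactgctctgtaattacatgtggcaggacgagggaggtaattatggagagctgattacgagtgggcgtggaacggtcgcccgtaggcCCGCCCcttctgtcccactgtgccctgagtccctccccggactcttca
Col24a1, chr3:145292322-145292481 (+): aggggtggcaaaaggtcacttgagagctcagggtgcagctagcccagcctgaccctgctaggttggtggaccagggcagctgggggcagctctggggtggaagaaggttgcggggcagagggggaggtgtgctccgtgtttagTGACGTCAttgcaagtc
Col27a1, chr4:63215262-63215421 (+): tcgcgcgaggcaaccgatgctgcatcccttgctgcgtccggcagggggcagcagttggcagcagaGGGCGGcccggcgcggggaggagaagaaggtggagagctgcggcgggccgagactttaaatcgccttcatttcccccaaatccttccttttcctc

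In the whole windows of 300 bases, GGGCGG was found in 6 of the 8 members and in 35.7% of 32851 windows. It stood in those of Col1a2, Col5a1, Col5a3, Col11a1, Col11a2 and Col27a1, so it was in genes that fell, in the one that rose and in Col5a3. CCAAT was found in 3 of 8 members (Col1a2, Col5a3 and Col11a1) and in 37.4% of all windows, and TATAAA in 2 of 8 (Col3a1 and Col11a2) and 13.6%. TGACGTCA was found in 1 member, Col24a1, across its annotated start, and in 1.79% of all windows. The 4 motifs do not overlap each other in the printed bases. None of them separated the members that fell from those that did not, and a match describes letters only.

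Some members also varied together within the groups and others did not. Of the 45 pairs of members, 12 had a correlation above 0.7 and 11 a negative one. After subtraction of each group mean, the gene means of Col5a1 and Col5a2 had a correlation of 0.96 over the 8 arrays. Those of Col11a1 and Col11a2 had one of 0.84, Col1a2 and Col11a2 one of 0.94, and Col5a2 and Col11a2 one of 0.87. Col1a1 with Col1a2 had 0.40, and Col3a1 with Col5a1 and Col5a2 had -0.08 and -0.12. Deviations of the Col1a1 and Col1a2 means came mainly from 1455494_at and 1446326_at, the probe sets of far wider spread in both groups. The first correlated at -0.31 with the other Col1a1 probe set, and 1446326_at at 0.24 and 0.26 with the other Col1a2 probe sets. Values given here for Col1a1 and Col1a2 thus describe mostly 1 probe set each. Col5a3 was negative with 5 of the other 9 members, down to -0.39 with Col1a2. Col27a1 had -0.18 with Col5a1 and -0.16 with Col5a2, and 0.81 with Col24a1, although one rose and the other fell between the genotypes. The genes outside the family with the most similar deviations were Tmem119, an osteoblast membrane protein, for Col5a2 (0.99), Serpinh1, the collagen chaperone HSP47, for Col11a1 (0.97), and Bmp1, the C-propeptidase of procollagen, for Col1a2 (0.99). For Col5a2 they were followed by Epha2 (0.97) and Slc26a1 (0.96), for Col11a1 by Plppr5 (0.96) and Hdac4 (0.95), and for Col1a2 by Slc7a8 (0.98) and Ripor3 (0.98). Those of Col1a1 were Gcnt3 (0.99), Yipf1 (0.98) and Mprip (0.97). Those of Col3a1 were Il17a (0.98), Crxos (0.96) and Map2k3os (0.96). None of the genes named for Col1a1 and Col3a1 passed between the genotypes, and neither did Epha2, Slc26a1, Plppr5, Hdac4 and Ripor3. Tmem119, Serpinh1, Bmp1 and Slc7a8 were lower in Hyp. All these correlations share the same 8 hybridisations, and the genes outside the family were picked as the highest over all other genes.

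Genes that act on fibrillar procollagen inside the cell were lower as well. A list for chain modification, folding and export held 19 measured genes. Of these, 12 fell and the other 7 did not pass, with a median of -0.27 (limma on gene means, against 6.32% of all genes lower). The 12 include Creb3l1, a transcription factor that is counted again among the transcription factors below. P4ha1 and P4ha2, the catalytic chains of prolyl 4-hydroxylase, fell by 1.11 ± 0.08 (SE, n = 4 per group) and 1.14 ± 0.11. For P4ha1 the range was -0.71 to -0.37 over the Hyp arrays and 0.45 to 0.66 over the WT arrays. P3h1, a prolyl 3-hydroxylase, fell by 0.84 ± 0.07 and Serpinh1 by 0.75 ± 0.06. Adjusted p for these 4 genes ranged from 3.54e-05 to 9.03e-05 (limma), and every probe set of each passed. The list was drawn up with earlier results of these data known.

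Outside the cell, the propeptide-cleaving group held 8 measured genes, of which 4 fell and none rose, with a median of -0.23. Pcolce and Pcolce2, which enhance removal of the C-propeptide, fell by 0.88 ± 0.10 (SE) and 0.81 ± 0.12. Adamts3, an N-propeptidase, fell by 0.32 ± 0.07 and Bmp1 by 0.30 ± 0.08 (limma adjusted p = 0.0157 and 0.0432). Bmp1 passed at 1 of its 3 probe sets and its gene mean was lost in 6 of the 8 omissions, all but those of Hyp replicate 3 and WT replicate 4. Adamts3 was lost without WT replicate 1 (limma adjusted p = 0.0529), and the count that fell was 2 without that array.

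Crosslinking enzymes and fibril-binding proteins went both ways, with 9 of 22 lower, 4 higher and a median of -0.25. Lox, the main lysyl oxidase, fell by 0.78 ± 0.06 (SE), while its relative Loxl1 rose by 0.51 ± 0.05 (limma adjusted p = 4.05e-05 and 9.33e-05). Lum and Fmod, leucine-rich proteoglycans that bind fibrils, fell by 0.62 ± 0.06 and 0.86 ± 0.09. The number that rose was 2 when Hyp replicate 1 or 3 or WT replicate 2 was left out, and 1 when WT replicate 1 was. Among 8 fibre partners, Col22a1 and Col16a1, collagens that lie at tissue junctions and along fibrils, fell by 1.23 ± 0.10 and 0.38 ± 0.06. Col2a1, the cartilage fibril chain that pairs with type XI, rose by 0.78 ± 0.16 (limma adjusted p = 0.00888), the direction opposite to Col11a1 and Col11a2. The number that rose in that group was 2 when Hyp replicate 4 or WT replicate 2 or 4 was left out.

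Genes of collagen breakdown did not move one way: 4 of 14 rose, 2 fell and the median was 0.01. Mmp13, the collagenase of osteoblasts and hypertrophic cartilage, rose by 0.52 ± 0.06 (SE) and Mmp14, a membrane collagenase, by 0.28 ± 0.06. Mmp16 fell by 1.11 ± 0.10 and Timp1, a metalloproteinase inhibitor, by 0.61 ± 0.10. Without WT replicate 1 the number that rose was 2. Among 8 collagen receptors, Itga10, a chain of a chondrocyte collagen-binding integrin, fell by 0.75 ± 0.09 and the others did not pass (2 fell without WT replicate 3). Of 15 transcription factors that act on fibrillar collagen genes, 4 fell and none rose (1 rose without WT replicate 3). They were Creb3l1, an activator of type I collagen genes in osteoblasts, at -0.91 ± 0.09, Twist1 at -0.89 ± 0.17, Sp7, the osteoblast factor osterix, at -0.71 ± 0.08, and Dlx5 at -0.42 ± 0.04. Sox9, the driver of cartilage collagen genes, lay at -0.06 ± 0.07 (limma adjusted p = 0.633). With Creb3l1 counted once, 33 of the 93 genes of these lists fell and 9 rose. The median of the 93 was -0.14, against 0.025 over all genes. Of all genes, 6.32% fell and 6.54% rose, and the counts of the single lists are to be read beside these shares.

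**Figure D4:**
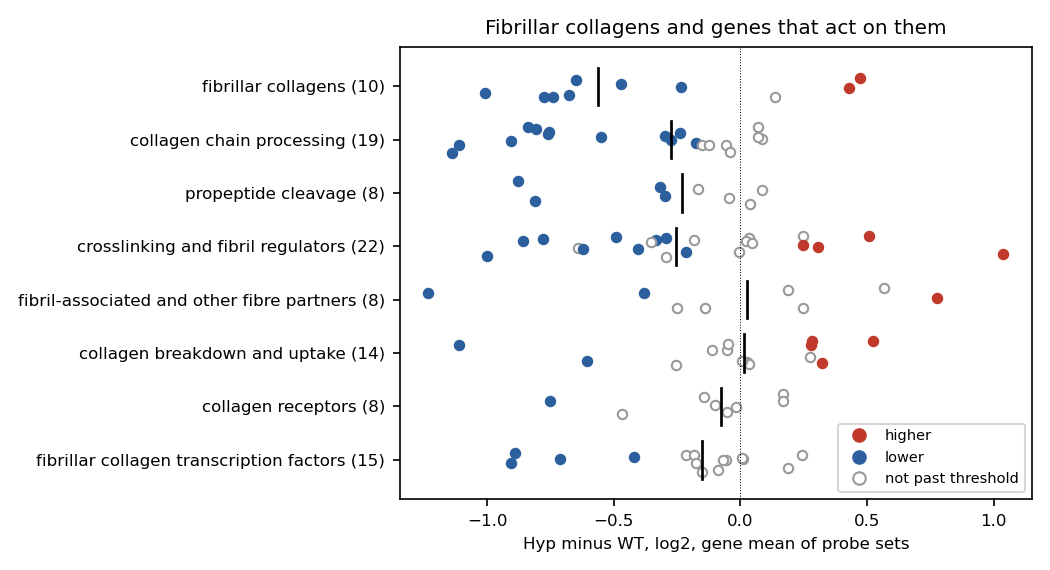
Hyp minus WT difference of gene means on the log2 scale (horizontal axis) for the 10 fibrillar collagens and for 7 lists of genes that act on them (rows, with the number measured), where filled points passed an adjusted p of 0.05 and the black bar is the median of the row. The medians lie at -0.56 for the collagens, -0.27 for chain processing and -0.23 for propeptide cleavage, and near 0 for breakdown and for fibre partners.

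Markers of the cell types that long bones hold moved in both directions between the genotypes, where 6.54% of all genes rose and 6.32% fell. Some genes stand in more than one list, such as Sp7, Col2a1, Fmod and the Col9 genes, so the lists are not independent of each other. Of 9 measured osteoblast markers, 7 fell and none rose, and their mean lay between -0.38 and -0.15 in Hyp and between 0.16 and 0.28 in WT. Of 17 chondrocyte markers 7 rose and none fell, with list means of 0.04 to 0.41 in Hyp and -0.40 to -0.08 in WT. Hyp replicate 4 was the lowest Hyp array in that list. The separation of the chondrocyte means rested on Col10a1, the collagen of hypertrophic cartilage, which rose by 2.57 ± 0.28 (SE; limma adjusted p = 0.000227). Without it the means of the other 16 genes overlapped, with Hyp replicate 4 at 0.0015 and WT replicate 4 at 0.016. Among them Acan, the main cartilage proteoglycan, rose by 0.59 ± 0.14 (SE; limma adjusted p = 0.0225) with groups that overlapped, while Col9a1, Col9a2 and Col9a3, which coat cartilage fibrils, lay at 0.57, 0.25 and 0.19 and did not pass (limma adjusted p = 0.0539, 0.0648 and 0.119).

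Among other cell types, 8 of 9 macrophage, 9 of 9 endothelial and 7 of 8 erythroid markers rose. So did 5 of 9 smooth muscle and pericyte markers. The shares over all genes were 6.54% higher and 6.32% lower. In each of these lists, the means of the 4 Hyp arrays lay above those of the 4 WT arrays. Those means lay between 0.18 and 0.44 in Hyp and between -0.43 and -0.31 in WT for macrophages. They lay between 0.13 and 0.27 against -0.35 and -0.16 for endothelium, between 0.03 and 0.20 against -0.35 and -0.11 for erythroid cells, and between 0.16 and 0.22 against -0.31 and -0.15 for smooth muscle and pericytes. Tendon and fibroblast markers (2 of 13 higher, 3 lower), osteoclast markers (1 of 10 lower) and skeletal muscle markers (0 of 15 called) had list means that overlapped between the groups. Without Thbs4, which had the largest difference of its list (2.95), the tendon and fibroblast means were lower on all Hyp arrays (-0.24 to -0.06) than on the WT arrays (0.09 to 0.35). The part that these cell types had in the collagen differences was not tested. Because levels are not in the values, whether any marker was near background in these bones cannot be read.

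**Figure D5:**
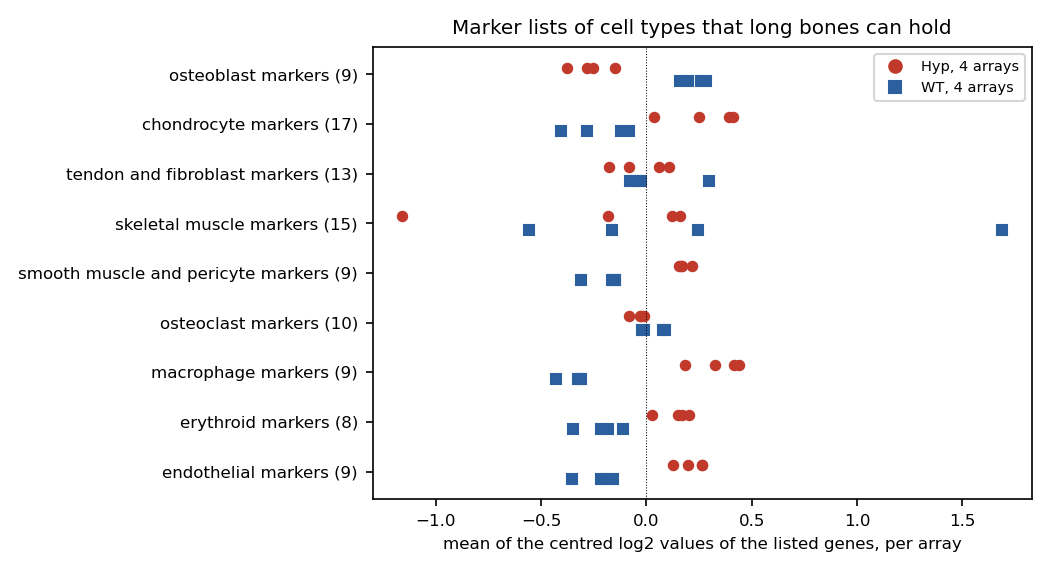
Mean of the centred log2 values over the genes of each marker list (rows, with the number measured) on each Hyp array (circles) and WT array (squares). Osteoblast marker means are lower and macrophage, endothelial, erythroid and smooth muscle means higher on all 4 Hyp arrays than on the WT arrays, the chondrocyte means are separate only with Col10a1 included, and WT replicate 3 lies at 1.69 for skeletal muscle.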

How the data were processed

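The 8 total RNA preparations, each combining 2 long-bone samples, were labelled with biotin in a kit that amplifies from the 3′ end. Each was hybridised to 1 array, per the labels' protocols. The deposited table holds 1 log2 value per probe set and array, made with RMA per the submitters' processing notes (version not given in the sources used here). The median of each probe set's 8 values was 0 within 5e-07, so they had been centred in a step the labels do not mention. Base 2 was assumed, because the range of one probe set reached 8.92 units and a 16-bit scanner spans 4.8 in log10. The test covered 45037 of 45101 probe sets, all but 64 controls. Platform annotation gave 1 symbol for 34945, several for 932 and none here for 9160, and symbols were updated through RefSeq (34741 matched).

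Hyp was compared with WT by limma 3.58.1 (R 4.3.3, lmFit and eBayes), two-sided, without covariates, with Benjamini-Hochberg adjustment over all probe sets or over the 18193 genes (mean of a gene's probe sets per array). Intervals are 95%. Differences between probe sets, or between genes, were tested per array with two-sided exact permutation over 70 splits, with a smallest p of 0.029. The code was checked on simulated independent normal values with planted shifts. That simulation had no array standing apart and no deviations shared between genes, so it does not bear on those features. The number of arrays limits the precision: the median SE was 0.081 over all probe sets. All probe sets of the members are named, and from each list up to 4 called genes with the smallest p, with Phex, Fgf23 and the 3 genes most alike for 5 members. Acan, Col9a1, Col9a2, Col9a3, Col10a1, Thbs4 and Sox9 were named after their values were seen. The members and lists were chosen with earlier results of these data known. Other settings tried were leaving out arrays, quantile and median normalization, weights per array, a robust prior, a replicate block, and other thresholds and probe-set rules. The tests of neighbours in the order of genes and of 1 low-SD probe set per type I gene, and list means without their largest difference, were added after the data were seen.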

Additional observations from a re-analysis of the deposited data

Results flagged for a closer look

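A single array lay far from the other 3 of its group in 4 of 88 groups of values checked, where chance gives about 1 in 20. At the Col1a1 probe set 1455494_at, WT replicate 3 lay at -0.058 and the other WT arrays between -0.70 and -0.65. At the Col5a2 probe set 1450625_at, Hyp replicate 3 lay at -0.29 and the other Hyp arrays between -0.55 and -0.51. At the Col24a1 probe set 1453418_at, Hyp replicate 4 lay at -0.51 and the others between -0.26 and -0.25. For Col2a1, Hyp replicate 4 lay at 0.049 and the others between 0.64 and 0.74. All 4 differences kept their direction without that array.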

How the results depend on the processing

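One result changed direction: Col1a1 against Col1a2 was -0.023 with the probe sets of lowest SD within Hyp (exact permutation p = 0.543). No other did under any alternative run. The lower member probe sets numbered 9 to 12 and the lower member genes 6 or 7. The higher member genes numbered 1 at an adjusted p under 0.01 and between 1 and 2 when an array was left out, and 1 member probe set was higher when 1.5-fold was also required. The higher list genes (9) numbered 3 at 0.01 and between 4 and 11 when an array was left out. Without both WT replicate 3 and Hyp replicate 2, the value of Col1a1 against Col1a2 was 0.90 (exact permutation p = 0.1, the smallest possible). Paired by replicate number it was 0.94 (exact sign-flip p = 0.125, also the smallest possible), and with the probe set of the largest SD it was 2.14. No pair of probe sets passed under any setting run, which the number of arrays largely sets, and 6 of 12 had an unadjusted p under 0.05. With a replicate block in limma, 3 member probe sets were higher and 10 lower, and Col1a2 1423110_at and Col3a1 1427884_at missed the threshold (adjusted p = 0.0605 and 0.0656); over all probe sets the block gave 1267 higher and 1723 lower. Whether the numbers pair the samples was not settled by the correlations of deviations. Same-numbered arrays correlated at 0.15, -0.04, 0.26 and 0.18. Hyp replicates 1 and 2 correlated more with another number, and Hyp replicates 3 and 4 most with their own. Without the probe sets of lowest SD, 17 of the 20 member probe sets were left and the same 2 missed the threshold (adjusted p = 0.0915 and 0.0619). Without probe sets of shared-probe suffix, Bmp1 lay at -0.08 (adjusted p = 0.58). Counts with 1 array fewer also reflect less replication. Signal over background is not in the centred values.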
